A study of Mus musculus with 8 samples.

Results

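The genes described here encode the machinery that licenses, starts and carries out DNA replication. They are the 49 rows of the deposited gene table whose symbol belongs to a list of MCM helicase, origin recognition complex (ORC), GINS, polymerase, clamp, single-strand binding, ligation, nucleotide supply and chromatin assembly genes. The table holds 16096 genes, all 49 symbols had exactly 1 row, and all 49 passed the filter on low counts. Peripheral retina was taken at embryonic day 16.5 from C57BL/6 mice for bulk RNA-seq. All 8 libraries carried the Pax6alpha-Cre transgene, which uses a regulatory element of Pax6 to express Cre recombinase in peripheral retina, and one Ezh2 allele that Cre can excise at its loxP sites (Ezh2fl). In 4 libraries the second Ezh2 allele was null (Ezh2fl/null, labelled here cKO for conditional knockout), and in 4 control libraries it was wild-type (Ezh2fl/+). Ezh2 is the catalytic subunit of the Polycomb complex that methylates histone H3. Cells without active Cre keep the floxed allele in both groups, so a cKO library can hold cells with 1 working allele. The labels do not tell whether a library came from 1 embryo or a pool, so p-values rest on sample-to-sample spread, which may be technical.

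Replication begins with licensing. In G1 the ORC marks origins, and Cdc6 and Cdt1 load the ring of Mcm2 to Mcm7 onto DNA. Geminin (Gmnn) blocks Cdt1 once S phase has begun, so that each origin fires once per cycle. The kinase Cdc7 with its activator Dbf4, and the factors Mcm10, Cdc45 and GINS, turn the loaded ring into an active helicase. Many of these genes are transcribed under E2F factors as cells enter S phase. In the embryonic retina the dividing cells are progenitors, and the neurons they produce leave the cycle and lose this machinery, so the level of these transcripts in whole tissue follows both the share of dividing cells and the amount of RNA in each. In bulk RNA, fewer cells of a type and less RNA per cell cannot be told apart.

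E2F sites are the sequence feature that licensing genes are best known to share. They were searched in the promoters because the members lay on the same side of 0 in most cases. RefSeq promoter windows on GRCm38.p6, the assembly also called mm10, run from 250 bases before to 50 bases after a start site and were found for 41 of the 49 members. Gins1, Gins2, Gins4, Gmnn, Mcm4, Pole, Prim2 and Rfc2 had no entry. The words TTTCCCGC, TTTGGCGC, TTTCGCGC and TTTGCCGC were searched on both strands, counting a gene if any of its windows held a match, and overlapping matches were allowed. A match was found in 14 of the 41 members (34.1%), against 4.63% of the 10378 tested genes with a window and 2.61% of all 27025 genes of the promoter table. Of the 9 called members with a window 5 held a match, and of the 32 others 9 did. The sites below belong to licensing genes and to Lig1, 1 site per gene, with the matched letters in capitals and up to 11 bases on each side, read on the strand of the gene.
Cdt1, chr8:122568036-122568064, plus strand: ggaactaccttTTTGGCGCcatggcgcaa
Lig1, chr7:13278841-13278870, plus strand: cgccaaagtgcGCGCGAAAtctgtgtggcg
Mcm3, chr1:20820275-20820304, minus strand: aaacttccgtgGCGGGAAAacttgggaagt
Mcm7, chr5:138171849-138171878, minus strand: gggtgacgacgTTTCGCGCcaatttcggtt
Cdc6, chr11:98908002-98908031, plus strand: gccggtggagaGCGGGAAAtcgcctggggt
Orc1, chr4:108579416-108579445, plus strand: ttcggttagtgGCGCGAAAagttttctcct

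All of these stretches except that of Cdc6 touch an annotated exon of their own gene. The Cdc6 match begins 138 bases before the RefSeq start site of its window. The printed stretch lies inside the annotated Cdc6 gene, which runs from 98907801 to 98923940. Mcm3 and Mcm7 each held 1 further match, and matches were also found in Gins3, Orc3, Pola1, Pold1, Pole2 and Rfc3. Mcm5 and Mcm6 held overlapping matches on both strands, also in no annotated exon, and are shown as 1 stretch each, with all matched bases in capitals.
Mcm5, chr8:75109345-75109378, plus strand: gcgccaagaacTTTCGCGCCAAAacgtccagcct
Mcm6, chr1:128359734-128359826, minus strand: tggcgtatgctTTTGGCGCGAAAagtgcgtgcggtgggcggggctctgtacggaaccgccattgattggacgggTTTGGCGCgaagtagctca

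Other words sorted the genes of S phase and of mitosis differently. Of the 16 genes of a list of G2 and mitosis markers, 14 had a window. The E2F words were in 1 of these 14 promoters. The CHR element TTTGAA, a known feature of genes expressed in G2 and mitosis, was in 10 of the 14 and in 7 of the 41 replication promoters, against 13.6% of tested genes. The CCAAT box was in 13 of the 14 and in 24 of the 41, against 43.0% of tested genes. These are matches of letters in the window and say nothing of binding.

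The total count per library ran from 13994825 to 18391647. Ezh2 itself (ENSMUSG00000029687) was not lower in the cKO libraries by whole-gene count, at 251 ± 23.1 CPM (counts scaled to the normalized library size) against 217 ± 18.1 (SD, n = 4 each; log2 fold change 0.21, edgeR adjusted p = 0.0701, exact two-sided permutation p = 0.0857, smallest possible 0.0286). A count over the whole gene does not check a deletion of single exons, so all directions are those of libraries labelled cKO. By Xist and Y-linked genes, cKO replicates 2 and 3 were female and the other 6 libraries male. Mitochondrial rRNA took 13.5% to 13.7% of all counts in controls 1 and 3, and 8.19% to 8.72% in controls 2 and 4. The share was 9.84% to 14.0% in the cKO libraries. No batch is given in the labels. Each call was therefore repeated with male libraries alone and with either pair of controls.

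Of the 49 members, 11 fell, 0 rose and 38 were not called (edgeR quasi-likelihood test, Benjamini-Hochberg adjusted over 15014 genes, threshold 0.05). Of all genes tested 11.8% were called, 3.46% lower and 8.35% higher, so the members' 22.4% lower is above the background of its direction. No member had an unadjusted p under 0.05 in the higher direction, and DESeq2 called 13 lower and 0 higher. The estimate was negative for 44 of 49 members, against 52.4% of all genes, and for 42 to 45 under the scaling alternatives and DESeq2. The median log2 fold change was -0.12, against -0.01 over all genes. The 4 labelled-cKO libraries lay wholly below the 4 controls for 15 members (30.6%, against 6.21% of all genes). No member lay wholly above, against 10.1% of all genes.

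The estimated changes were small. The largest fall was that of Pole, at log2 -0.32, a level 20.1% lower. The 95% limits of all 49 members lay between -0.50 and 0.18. No member passed a test against a change of 1.2-fold, which does not show that the changes were smaller than that. The estimates for Pole, Chaf1a and Cdt1 were falls of 1.25-fold, 1.24-fold and 1.23-fold. The count of 11 was sensitive to single libraries. It was 4 without control replicate 2 or control replicate 4, 6 on leaving out cKO replicate 2, and 5 in the 6 male libraries. It was 3 with scaling by library size alone, 2 with sex as a covariate, 2 against control replicates 1 and 3 only and 10 against control replicates 2 and 4 only.

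**Figure D1:**
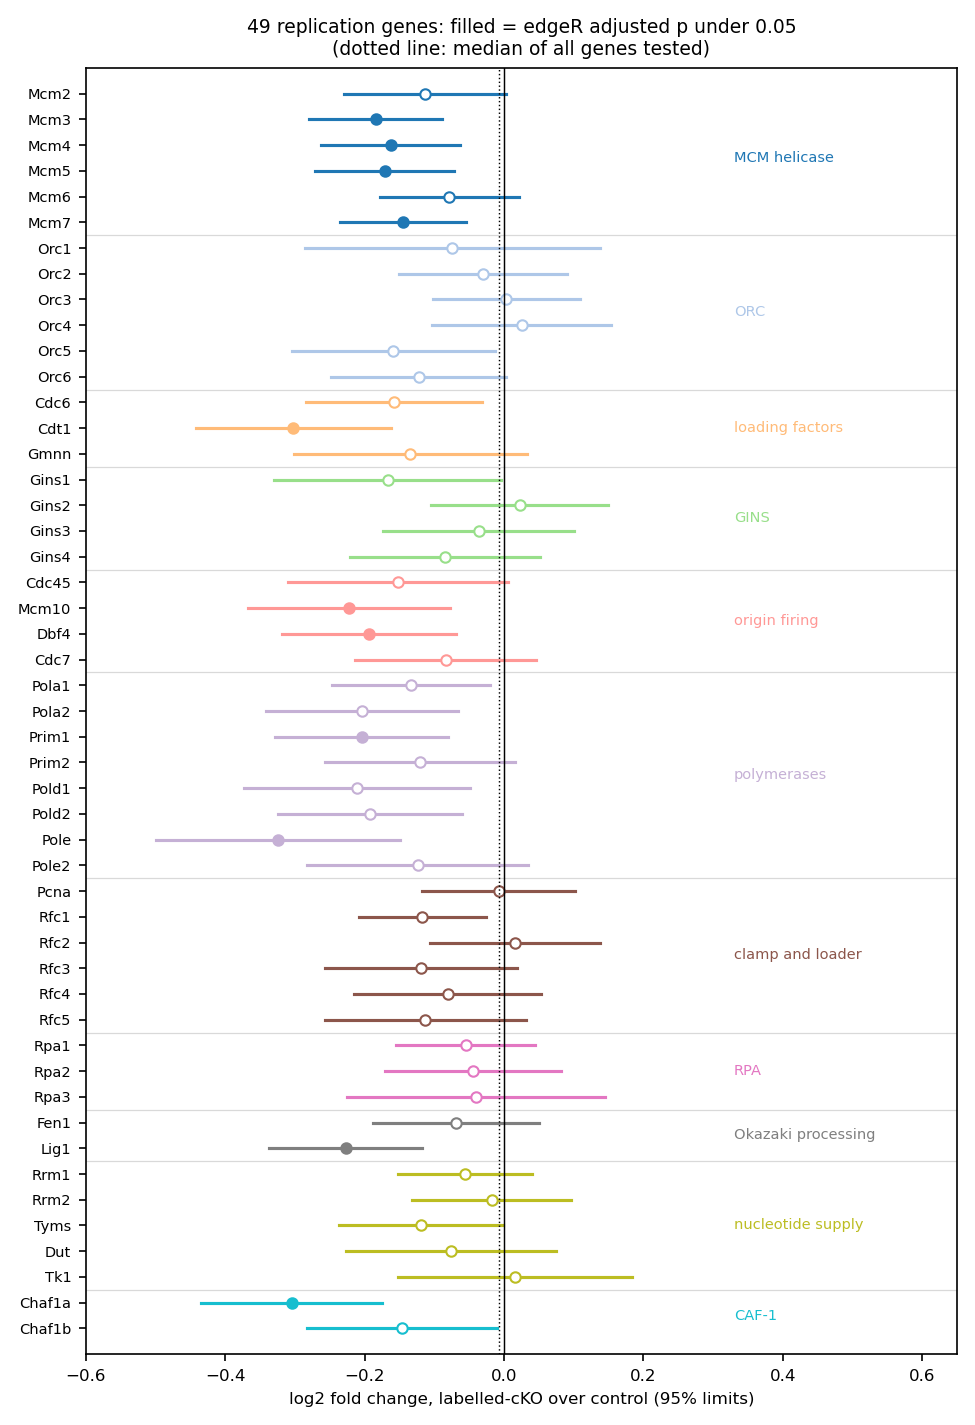
Log2 fold change (labelled-cKO over control, x axis) of the 49 replication genes with 95% limits from edgeR, 4 libraries per group, ordered by complex; filled circles are the 11 members with an adjusted p under 0.05 and the dotted line is the median of all genes tested. All called members lie to the left of 0, between -0.32 and -0.15, and ORC, GINS, RPA, the clamp and its loader and the nucleotide supply genes hold no filled circle.

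**Figure D2:**
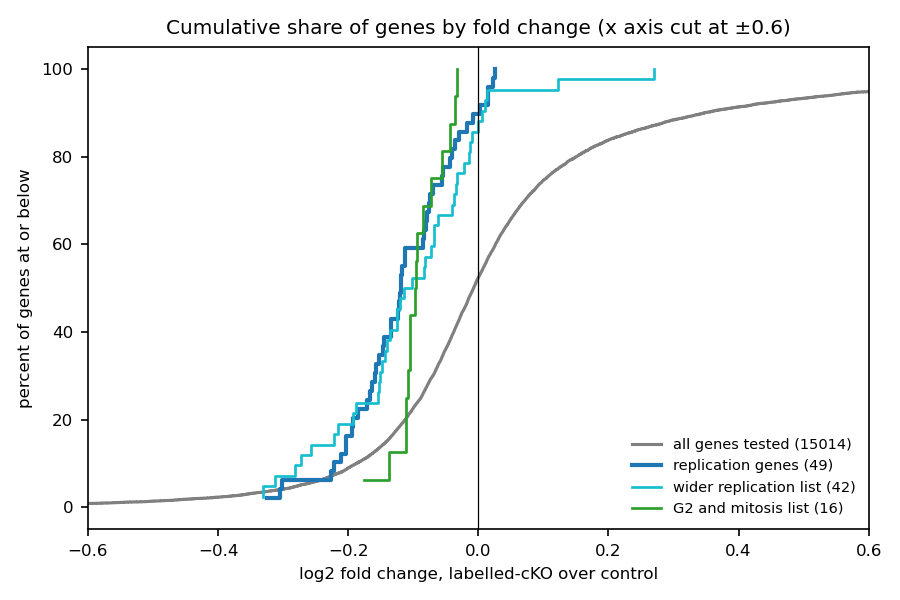
Cumulative percent of genes (y axis) at or below each log2 fold change (x axis, shown from -0.6 to 0.6) for all 15014 genes tested, the 49 replication genes, the 42 genes of the wider replication list and the 16 genes of the G2 and mitosis list. The medians of the 3 lists lie to the left of that of all genes, at -0.12, -0.11 and -0.10 against -0.01, and the G2 and mitosis list holds no gene below -0.18.

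The 6 subunits of the MCM ring, the core of the replicative helicase, were all lower on average, and 4 of them fell. In the order of replicates 1 to 4, which is kept throughout, Mcm3 stood at 194, 207, 194 and 200 CPM in labelled-cKO retina and at 212, 227, 232 and 233 CPM in control retina. Its groups did not overlap, and the highest labelled-cKO library, replicate 2, came close to the lowest control, replicate 1. The fall was log2 -0.18 (SE 0.04, edgeR adjusted p = 0.0132), and its call ended without control replicate 4 (-0.18, edgeR adjusted p = 0.0561).

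Mcm5 was counted at 177, 191, 189 and 185 CPM in the cKO libraries and at 195, 218, 206 and 217 CPM in the controls. The groups were apart, again with control replicate 1 nearest to the labelled-cKO libraries. It fell by 0.17 on the log2 scale (SE 0.05, edgeR adjusted p = 0.0259) and was called among male libraries alone at -0.21. Its call ended without cKO replicate 1 or control replicate 2 or 4, where the highest adjusted p was 0.0949 (edgeR). Mcm4 was at 178, 165, 171 and 178 CPM against 180, 198, 198 and 200 CPM, so control replicate 1 all but touched the labelled-cKO range. Its fall of log2 -0.16 (edgeR adjusted p = 0.0337) ended without cKO replicate 2 or 3 or control replicate 2, 3 or 4, at an adjusted p of up to 0.111 (edgeR).

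Mcm7 was at 148, 149, 156 and 146 CPM against 156, 171, 165 and 170 CPM. Here too the lowest control, replicate 1, sat next to the highest labelled-cKO library, replicate 3. The log2 fold change was -0.15 (edgeR adjusted p = 0.0366), and the call ended in 6 of the 8 fits without 1 library, all but those without cKO replicate 3 or control replicate 1. The Mcm7 gene (mm10 chromosome 5, 138164583 to 138172422, minus strand) shares 321 exon bases with Ap4m1 and 64 with Cops6 on the other strand, 7.25% and 1.45% of its exons. The sources used here do not state whether reads were counted by strand. Ap4m1 was at log2 -0.06 and Cops6 at 0.01.

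Mcm2 and Mcm6 were not called. Mcm2 was at 197, 185, 215 and 214 CPM against 206, 230, 225 and 217 CPM, and cKO replicates 3 and 4 lay above control replicate 1. Its log2 fold change was -0.11 (95% limits -0.23 to 0.00, edgeR adjusted p = 0.219). Mcm6 was at 366, 368, 368 and 347 CPM against 364, 387, 397 and 381 CPM, so only control replicate 1 fell within the labelled-cKO range. Its estimate was -0.08 (95% limits -0.18 to 0.02, edgeR adjusted p = 0.346). Differences between the 6 subunits were not tested. With male libraries alone, Mcm4 was at -0.12 and Mcm7 at -0.17, neither called, while Mcm3 was at -0.20 and called at an edgeR adjusted p of 0.0498. With sex as a covariate, Mcm5 was called, and Mcm3, Mcm4 and Mcm7 lost their calls. Against control replicates 1 and 3 only, or with library size alone, no MCM subunit was called. Against control replicates 2 and 4 only, Mcm3, Mcm4, Mcm5 and Mcm7 were called.

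**Figure D3:**
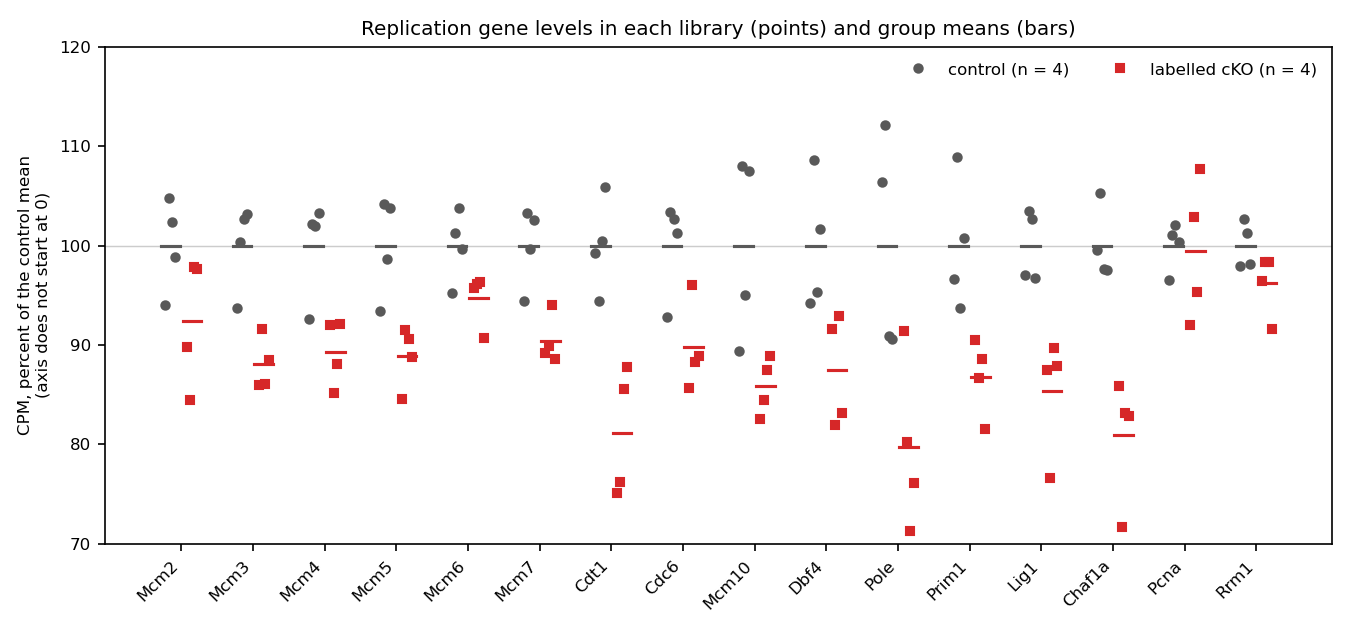
CPM of 16 replication genes in each library as a percent of the gene's control mean (y axis, which does not start at 0), with grey circles for the 4 controls, red squares for the 4 labelled-cKO libraries and bars for group means. The labelled-cKO squares sit below the control circles for Mcm3, Mcm4, Mcm5, Mcm7, Cdt1, Mcm10, Dbf4, Prim1, Lig1 and Chaf1a, and mix with them for Mcm2, Mcm6, Cdc6, Pole, Pcna and Rrm1.

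Per gene length the MCM subunits were unequal in abundance in the controls, although the ring holds 1 of each. The authors' FPKM (fragments per kilobase of gene model and depth) put Mcm6 first at 131 ± 7.81, then Mcm3 at 74.9 ± 5.65, Mcm2 at 64.6 ± 4.89, Mcm5 at 60.6 ± 5.58, Mcm4 at 53.6 ± 4.52 and Mcm7 at 37.1 ± 2.98 (SD, n = 4). The control ranges of Mcm3 and Mcm2, of Mcm2 and Mcm5, and of Mcm5 and Mcm4 overlapped, whereas Mcm6 stood apart at the top and Mcm7 at the bottom. The order was the same by the labelled-cKO means, from Mcm6 at 126 ± 3.01 to Mcm7 at 34.1 ± 1.26 FPKM. The gene lengths behind these FPKM are not stated, and an error in 1 length would shift that gene in both groups alike.

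Of the licensing factors that load the ring, Cdt1 fell and no ORC subunit was called. Cdt1 (chromosome 8, 122568015 to 122573554, plus strand) was at 44.0, 44.6, 50.1 and 51.4 CPM against 58.1, 55.3, 58.8 and 62.0 CPM in the controls. Every labelled-cKO library lay below every control, with replicates 1 and 2 the lowest. Cdt1 fell by 0.30 on the log2 scale (SE 0.07, edgeR adjusted p = 0.00643), a level 18.9% lower, with 95% limits of -0.44 to -0.16. Cdt1 kept its call in all 8 fits without 1 library, among male libraries alone (-0.30, edgeR adjusted p = 0.0364) and with sex as a covariate. It missed the threshold against control replicates 2 and 4 only (-0.30, edgeR adjusted p = 0.0559) and against a change of 1.2-fold.

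Cdc6, the loader that works beside Cdt1, was at 46.2, 51.8, 47.6 and 47.9 CPM against 50.02, 55.7, 55.3 and 54.6 CPM. Only cKO replicate 2 lay above the lowest control, replicate 1, and the estimate of log2 -0.16 was not called (edgeR adjusted p = 0.109). Geminin, the inhibitor of Cdt1, was at 34.6, 34.6, 37.3 and 29.7 CPM against 34.9, 41.4, 39.1 and 34.1 CPM, with overlapping groups and an estimate of -0.13 (95% limits -0.30 to 0.03). In FPKM, Cdt1 and Gmnn had control levels of 26.5 ± 1.87 and 25.3 ± 2.67 with overlapping ranges, and labelled-cKO levels of 21.9 ± 2.16 and 23.4 ± 2.05 (SD, n = 4).

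The 6 ORC subunits, which bind origins, had a median log2 fold change of -0.05, and 0 were called by edgeR or DESeq2, with 1 at an unadjusted p under 0.05. That member was Orc5, at 27.0, 23.9, 27.1 and 22.6 CPM against 28.0, 28.8, 28.1 and 27.6 CPM. Its groups were apart by a small margin, and the estimate was -0.16 (edgeR adjusted p = 0.168). Orc3 was at 0.00 (95% limits -0.10 to 0.11) and Orc4 at 0.03 (-0.10 to 0.15), limits that do not reach the estimate for Cdt1. Orc2 was at -0.03 and Orc6 at -0.12.

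Orc1, the subunit whose level is known to follow the cell cycle, was the scarcest of all 49 genes per length, at 2.45 ± 0.265 FPKM in the controls. Orc6 was the most abundant ORC subunit at 34.9 ± 3.86 FPKM, and no neighbours in the ORC order had overlapping control ranges. Orc1 counts were low in both groups, 7.29 to 9.12 CPM against 7.94 to 9.43 CPM, and its estimate of -0.07 has limits of -0.29 to 0.14. A fall like that of Mcm3 or Mcm5 in Orc1 was therefore not detectable at this depth. Exons of Orc1, Orc2, Orc4 and Orc6 overlap genes on the other strand. The largest share is that of Nif3l1, at 29.8% of the Orc2 exons, and Nif3l1 was at log2 0.00. Acvr2a, which shares 5.98% of the Orc4 exons, rose from 106 to 121 CPM (log2 0.20, edgeR adjusted p = 0.0152). Its part in the Orc4 count was not tested.

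**Figure D4:**
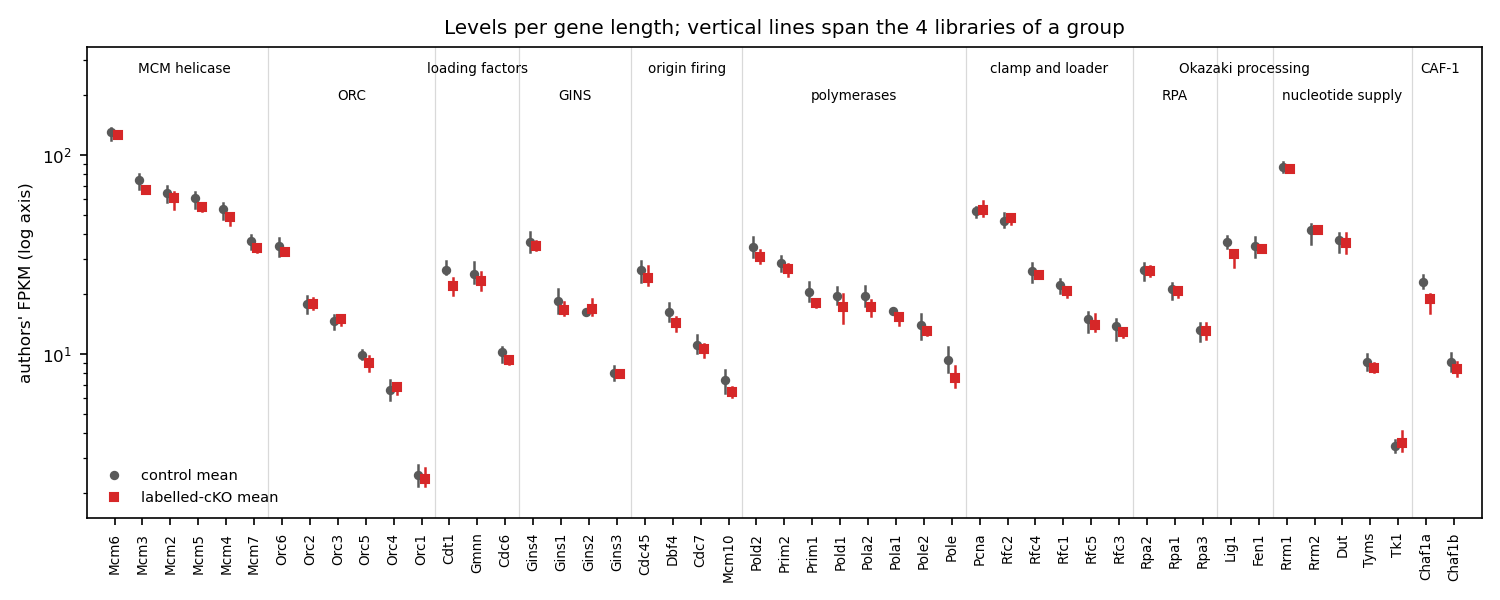
The authors' FPKM (y axis, log scale) of the 49 replication genes, grouped by complex and ordered within it by control level; markers are group means (grey circles control, red squares labelled cKO) and vertical lines span the 4 libraries. Levels run from 131 FPKM for Mcm6 to 2.45 for Orc1 in the controls, and the difference between groups is small beside the differences between genes.

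At the step that converts the licensed ring into a moving helicase, the kinase activator Dbf4 and the factor Mcm10 fell. Dbf4 was at 98.1, 87.8, 99.5 and 89.1 CPM against 101, 116, 102 and 109 CPM. The groups were apart, with cKO replicates 1 and 3 close to control replicates 1 and 3. The fall was log2 -0.19 (SE 0.06, edgeR adjusted p = 0.0427). Mcm10 was at 47.2, 48.3, 50.1 and 50.8 CPM against 51.1, 61.8, 54.4 and 61.5 CPM, again with control replicates 1 and 3 nearest to the labelled-cKO libraries. Its fall was log2 -0.22 (SE 0.07, edgeR adjusted p = 0.0451).

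Both calls ended with male libraries alone, with library size alone, with upper-quartile scaling and with sex as a covariate. They also depended on which controls were used. Against control replicates 1 and 3 only, Mcm10 was at -0.10 and Dbf4 at -0.12, neither called. Against control replicates 2 and 4 only, Mcm10 was at -0.33 and Dbf4 at -0.27, both called. Without 1 library, the Dbf4 call ended without cKO replicate 2 or 4 or control replicate 2 or 4, and the Mcm10 call without cKO replicate 1, 2 or 3 or control replicate 2, 3 or 4, with adjusted p up to 0.136 and 0.151 (edgeR). The part of the mitochondrial rRNA share, 13.5% to 13.7% against 8.19% to 8.72% in the 2 pairs of controls, was not tested.

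Cdc7, the kinase that Dbf4 activates, was at 45.2, 41.2, 45.6 and 41.6 CPM against 45.2, 45.3, 43.8 and 49.7 CPM, with overlapping groups and an estimate of -0.08. Cdc45, which joins MCM and GINS in the active helicase, was at 52.4, 51.5, 61.3 and 51.4 CPM against 54.5, 64.8, 57.3 and 63.9 CPM. Only cKO replicate 3 lay within the control range, and the estimate of -0.15 was not called (edgeR adjusted p = 0.225). The 4 GINS subunits had a median of -0.06 and 0 calls by edgeR or DESeq2, with 1, Gins1 (-0.17), at an unadjusted p under 0.05. Gins2 was at 0.02 (95% limits -0.10 to 0.15), and 67.3% of its exons overlap Gse1 on the other strand, itself at log2 0.08. Gins3 and Gins4 were at -0.04 and -0.08.

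All 8 members that encode subunits of the replicative polymerases and primase had negative estimates, with a median of -0.20, and 2 fell. The wider replication list, described below, holds 4 further polymerase subunits. Of these, 3 had negative estimates. Pold4, at only 5.54 CPM in the controls, was at 0.27 (95% limits 0.00 to 0.54, edgeR adjusted p = 0.206) and not called. Pole, the catalytic subunit of the leading-strand polymerase epsilon, was at 96.0, 84.3, 74.8 and 80.0 CPM against 112, 118, 95.5 and 95.2 CPM. Here control replicates 3 and 4 were the low controls and cKO replicate 1 reached above both, so the groups overlapped. The estimate was log2 -0.32 (SE 0.08, 95% limits -0.50 to -0.15, edgeR adjusted p = 0.017). The call ended without cKO replicate 3, control replicate 1 or control replicate 2 (adjusted p up to 0.059, edgeR), with male libraries alone at -0.25, with sex as a covariate, against either pair of controls and without the 2 libraries with lens crystallin counts.

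Prim1, the catalytic subunit of primase, was at 72.3, 69.2, 70.8 and 65.1 CPM against 77.2, 87.0, 74.8 and 80.5 CPM. The groups were apart and the fall was log2 -0.20 (SE 0.06, edgeR adjusted p = 0.033). Its call ended without cKO replicate 2, 3 or 4 or control replicate 2 or 4, with adjusted p up to 0.115 (edgeR), and with male libraries alone at -0.22. The Prim1 call also ended with library size alone, with sex as a covariate and with the replicate number as a block. It ended too without the 2 libraries with lens crystallin counts and against control replicates 1 and 3 only. Prim2, the other primase subunit, was at -0.12 and not called.

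Pola2, the second subunit of polymerase alpha, was at 48.4, 45.7, 49.9 and 52.0 CPM against 54.7, 61.7, 52.3 and 57.0 CPM. Its groups were apart and its estimate equalled that of Prim1 at -0.20, but its adjusted p was 0.0538 by edgeR and 0.0317 by DESeq2. Pold1 and Pold2, the catalytic and second subunits of the lagging-strand polymerase delta, were at -0.21 and -0.19, with edgeR adjusted p of 0.0945 and 0.058. DESeq2 called Pold2 (adjusted p = 0.0354). Pola1, the catalytic subunit of polymerase alpha, was apart between groups at -0.13 without a call, and Pole2 was at -0.12.

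The sliding clamp and its loader held no call. Pcna, the clamp that holds polymerases on DNA, was at 117, 131, 121 and 137 CPM against 123, 128, 130 and 127 CPM. The labelled-cKO libraries lay on both sides of the controls, with an estimate of -0.01 and 95% limits of -0.12 to 0.10. These limits leave out falls as large as the estimates for Mcm3, Cdt1 or Pole. Of the 5 subunits of the clamp loader, replication factor C, Rfc1 was apart between groups at -0.12 (edgeR adjusted p = 0.097). Rfc2 was at 0.02, Rfc3 at -0.12, Rfc4 at -0.08 and Rfc5 at -0.11. By edgeR and by DESeq2, 0 of these 6 genes were called, and 1, Rfc1, had an unadjusted p under 0.05.

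Replication protein A, which coats single-stranded DNA, was close to 0 in all 3 subunits. Rpa1 was at -0.06 (95% limits -0.15 to 0.04), Rpa2 at -0.04 and Rpa3 at -0.04, with 0 calls by edgeR or DESeq2 and 0 at an unadjusted p under 0.05.

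On the lagging strand, the ligase that seals Okazaki fragments fell. Lig1 (chromosome 7, 13277283 to 13311433, plus strand) was at 157, 137, 161 and 157 CPM against 174, 186, 184 and 173 CPM. The groups were apart, and cKO replicate 2 was well below the other 3 labelled-cKO libraries. Lig1 fell by 0.23 on the log2 scale (SE 0.05, edgeR adjusted p = 0.00854), with 95% limits of -0.34 to -0.12. The call held in all 8 fits without 1 library and with male libraries alone (-0.19, edgeR adjusted p = 0.0461). It ended with sex as a covariate (edgeR adjusted p = 0.099), with library size alone (edgeR adjusted p = 0.0549) and against either pair of controls.

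Fen1, the flap nuclease that prepares the same fragments for ligation, was not called at -0.07 (95% limits -0.19 to 0.05). Its count needs care. The antisense gene Gm10143 shares 78.8% of the Fen1 exon bases and was counted at 78.1 and 82.3 CPM in the 2 groups, where Fen1 was at 81.5 and 85.5 CPM. Whether reads were shared between the 2 genes was not tested.

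The largest subunit of chromatin assembly factor 1, which deposits histones behind the fork, had the smallest adjusted p of all 49 genes. Chaf1a was at 65.7, 54.9, 63.6 and 63.4 CPM against 76.2, 80.6, 74.7 and 74.6 CPM. Every labelled-cKO library lay below every control, with cKO replicate 2 the lowest. Chaf1a fell by 0.30 on the log2 scale (SE 0.06, edgeR adjusted p = 0.00356), with 95% limits of -0.43 to -0.17. It was called in all 8 fits without 1 library, with male libraries alone (-0.25, edgeR adjusted p = 0.0357) and against either pair of controls, and missed the threshold with sex as a covariate (edgeR adjusted p = 0.0583). Of its annotated exon bases, 52.5% overlap Ubxn6 on the other strand, which was at log2 -0.07 (edgeR adjusted p = 0.50) and 73.5 CPM in the controls. The second subunit, Chaf1b, was at -0.15 with overlapping groups (edgeR adjusted p = 0.174).

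Genes that supply deoxynucleotides held no call. Rrm1, the large subunit of ribonucleotide reductase, was at 340, 346, 347 and 323 CPM against 345, 362, 357 and 346 CPM, with an estimate of -0.06. Rrm2, the subunit that limits the enzyme in S phase, was at 115, 118, 114 and 118 CPM against 104, 121, 125 and 121 CPM. Its controls spread more widely than its labelled-cKO libraries, and the estimate was -0.02 (95% limits -0.13 to 0.10). Tyms, which makes thymidylate, was apart between groups at -0.12 (edgeR adjusted p = 0.204), Dut, which removes dUTP, was at -0.08, and the thymidine kinase gene Tk1 was at 0.02. By edgeR and DESeq2, 0 of these 5 were called, with 1, Tyms, at an unadjusted p under 0.05.

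Replication genes outside the 49 members also included genes that fell. A wider list held 42 genes of helicase assembly, fork protection, further polymerase subunits, alternative clamp loaders, primer removal, chromatin at the fork, licensing control and nucleotide balance. All 42 were tested, 10 fell, 0 rose and 32 were not called, with 2 at an unadjusted p under 0.05 in the higher direction. DESeq2 called 9 lower and 0 higher. The share of 23.8% lower is again to be read against 3.46% of all genes, and the median was -0.11. The count was 5 without control replicate 2 or 4, 3 with male libraries alone or with library size alone, 2 against control replicates 1 and 3 only and 1 with sex as a covariate.

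Dtl, the substrate receptor of the ubiquitin ligase that destroys Cdt1 at forks, had the smallest p of the wider list. It fell from 105 ± 3.77 to 84.9 ± 0.774 CPM (SD, n = 4; log2 -0.31, SE 0.04, edgeR adjusted p = 0.00021) and was called in all alternatives run other than the test against a change of 1.2-fold. Skp2, another ubiquitin ligase subunit that acts on Cdt1, was at -0.22. Its call ended without control replicate 4, with library size alone and against control replicates 1 and 3 only. Uhrf1, which brings DNA methylation to newly copied DNA, fell from 243 ± 16.8 to 193 ± 18.9 CPM (log2 -0.33, edgeR adjusted p = 0.00432). The Uhrf1 call ended against control replicates 1 and 3 only. With sex as a covariate Dtl was the 1 gene of the wider list still called.

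Factors that activate the helicase or protect the fork were among the others that fell. Ticrr (treslin) was at -0.26. Its call ended with male libraries alone, with library size alone, without the 2 libraries with lens crystallin counts and against either pair of controls. Topbp1, which works with Ticrr in origin firing, was at -0.19. That call ended without control replicate 2 or 4, with male libraries or library size alone, and against control replicates 1 and 3 only. The fork protection gene Timeless was at -0.28. Its call ended without control replicate 2, with male libraries or library size alone, and against control replicates 1 and 3 only. Samhd1, which breaks down deoxynucleotides, was at -0.27, a call that ended with male libraries alone and against control replicates 2 and 4 only. Dscc1, a subunit of an alternative clamp loader, was at -0.33 from only 12.8 CPM. The Dscc1 call ended without cKO replicate 2 or 4 or control replicate 2, 3 or 4. It also ended with male libraries or library size alone, without the 2 libraries with lens crystallin counts and against control replicates 1 and 3 only. The other 2 genes, Mtbp and Pole3, passed narrowly at adjusted p of 0.046 and 0.0498 (edgeR). Each lost its call in 7 of the 8 fits without 1 library, with male libraries alone and against either pair of controls.

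Among 13 genes of the E2F and RB families, which govern entry into S phase, 2 fell, 0 rose and 11 were not called. Their median was -0.13, and 3.46% of all genes tested were called lower. DESeq2 called 3 lower. Rbl1 (p107) fell from 88.5 ± 4.10 to 71.7 ± 4.52 CPM (log2 -0.30, edgeR adjusted p = 0.00227), and E2f1 from 36.9 ± 1.41 to 31.7 ± 1.23 CPM (log2 -0.22, edgeR adjusted p = 0.0176). The E2f1 call ended without control replicate 2 or 4, with male libraries or library size alone, and against either pair of controls. It also ended with sex as a covariate and without the 2 libraries with lens crystallin counts. Rb1 was at 0.04, and the repressor E2Fs E2f7 and E2f8 were both at -0.20 without a call.

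Genes of G2 and mitosis were lower by about as much in the median but without a call. All 16 estimates were negative, between -0.18 and -0.03, with a median of -0.10, where 52.4% of all genes tested were negative. By edgeR and DESeq2, 0 were called, and 4 had an unadjusted p under 0.05. Of all genes tested edgeR called 3.46% lower, a share at which a list of 16 can hold 0. Mki67 was at -0.04 (95% limits -0.18 to 0.10) and Cdk1 at -0.04. The difference between the replication and mitosis lists was not tested.

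Progenitors are the cells of the retina that replicate. Of 10 retinal progenitor markers, 4 fell, 0 rose and 6 were not called, the last at log2 values between -0.16 and 0.03. Of all genes tested 3.46% fell and 8.35% rose. The median of the list was -0.16, and their summed level was 2442 to 2814 CPM in the labelled-cKO libraries and 2936 to 3179 CPM in the controls. Among them Nr2e1 fell by 0.41, Hes5 by 0.41 and Fgf15 by 0.31 on the log2 scale. Fgf15 was not called among male libraries alone, with sex as a covariate or against control replicates 1 and 3 only. Hes5 was not called against control replicates 2 and 4 only. Of 8 neuron markers, 1 rose (Snap25, 0.25) and 1 fell (Nefm, -0.30), with summed levels of 3396 to 3645 against 3479 to 3933 CPM. The median of the neuron list was -0.08, 5 of its 8 estimates were negative, and DESeq2 called 3 lower and 1 higher. The labelled-cKO libraries lay wholly below the controls for 3 of the 8 (37.5%, against 6.21% of all genes) and wholly above for 0 (against 10.1%). The part of progenitor content in the lower replication transcripts was not tested.

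Markers of other cell types are given as levels, and their calls stand beside 8.35% of all genes tested called higher and 3.46% lower. In the microglia list, 3 of 6 genes rose (Cx3cr1 0.54, C1qb 0.63 and Tyrobp 0.84), with a summed level of 34.5 to 41.1 against 26.1 to 32.3 CPM. Erythroid genes summed to 91.0 to 870 against 160 to 1287 CPM with 0 of 6 called by edgeR or DESeq2 (0 at an unadjusted p under 0.05). In the pigment epithelium list, 1 of the 6 tested genes, Rlbp1, rose, and the summed level was 22.9 to 38.2 against 19.1 to 45.8 CPM. Lens genes summed to 1.56 to 7.66 against 1.12 to 11.3 CPM, with Cryaa, Crybb1 and Crygb at 0 in at least 1 library. In the mesenchyme list 2 of 6 tested genes rose, Pdgfra and Twist1, with sums of 23.2 to 74.3 against 23.1 to 49.5 CPM and Lum and Twist1 at 0 in at least 1 library. Of 3 tested endothelial genes Cldn5 rose (0.43) and Kdr fell (-0.24), with sums of 270 to 308 against 320 to 349 CPM. Kdr made up nearly all of that sum, at 281 against 332 CPM on average, and the median of the 3 genes was 0.14. The part of these levels in the replication result was not tested.

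Library by library, the replication genes also differed among the controls. The median over the 49 genes of log2 CPM, centred on each gene's mean over the 8 libraries, was -0.04, -0.05, -0.03 and -0.08 in cKO replicates 1 to 4 and -0.01, 0.13, 0.04 and 0.07 in control replicates 1 to 4. All 4 labelled-cKO libraries were below all 4 controls, with control replicate 1 next to cKO replicate 3. Control replicate 1 was the lowest control for 30 of the 49 genes and control replicate 2 the highest for 30. The summed CPM of the 49 genes was 4281, 4239, 4372 and 4220 in the cKO libraries and 4433, 4797, 4661 and 4696 in the controls, on average 4278 ± 67.5 against 4647 ± 154 (SD, n = 4).

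**Figure D5:**
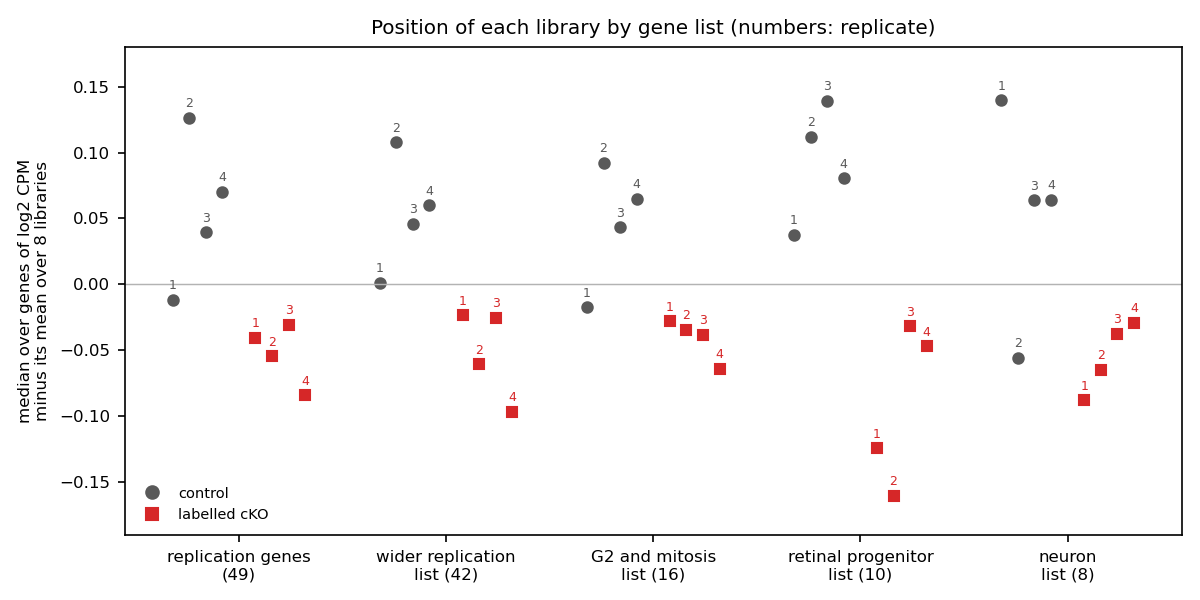
Median over the genes of a list of log2 CPM minus the gene's mean over the 8 libraries (y axis), for 5 lists, with grey circles for controls and red squares for labelled-cKO libraries, numbered by replicate. For the replication genes the squares lie between -0.08 and -0.03 and the circles between -0.01 and 0.13, with control replicate 1 lowest of the circles, and the G2 and mitosis list shows the same order of controls.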

How the data were processed

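Whole-number counts per gene and library were deposited by the authors in 1 table of 16096 genes. Per the submitters' processing notes, Novoalign 2.08.01, DESeq2 and the mm10 build were used. Which counter, annotation, strand setting and gene filter were used is not stated in the labels or headers. The authors' FPKM columns served for levels per length. The authors' log2 ratio column was used only as a check, and in the authors' deposited table it is negative for 45 of the 49 members, from -0.32 to 0.02. A further deposited column, a score whose scale the header does not name, was not used.

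Counts were tested with edgeR 4.0.16 (R 4.3.3): TMM, filterByExpr with a minimum count of 10, glmQLFit and glmQLFTest, 4 against 4 libraries, no covariate, Benjamini-Hochberg adjustment over the 15014 genes tested, called at an adjusted p under 0.05. The procedure was tested on simulated data. Standard errors and 95% limits come from the F statistic and its degrees of freedom. CPM use normalized library sizes.

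The members, gene lists, alternatives and the libraries left out were chosen with earlier results of these data known. Named genes are Ezh2, all called members, Mcm2 to Mcm7, the largest and smallest change in each complex, called genes of the wider list (8 of smallest p, with the other 2 named to complete the count) and called genes of the E2F and mitosis lists. Other members, and Pold4 of the wider list, are given to complete a complex. Coordinates and exon overlaps are from GENCODE M21 on mm10, and 15 members share exon bases with another gene of the table. Alternatives were DESeq2 1.42.0, other scalings and filters, single libraries left out, sex, a replicate block and a test against 1.2-fold. Restricting the controls to either pair was added after the data were seen. 1 gene of the progenitor list is not reported here by name.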

Additional observations from a re-analysis of the deposited data

Results flagged for a closer look

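In 4 of the 98 groups of 4 libraries formed by the 49 members, 1 library stood far from the other 3 by Dixon's criterion at its 95% level (the gap to the nearest library over the group's range). Chance alone gives about 1 in 20 groups. Mcm4 in control replicate 1 was at 179.6 CPM, where the nearest control was at 197.6. Mcm6 in cKO replicate 4 was at 346.8 CPM, with the nearest labelled-cKO library at 366.1. Cdc45 in cKO replicate 3 was at 61.33 CPM, with the nearest at 52.39. Lig1 in cKO replicate 2 was at 137.2 CPM, with the nearest at 156.8.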

How the results depend on the processing

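The number of replication genes called lower was 11. It became 3 with library size alone, 2 with sex as a covariate, 5 with male libraries alone, 0 in the test against 1.2-fold and 2 against control replicates 1 and 3 only, and ran from 4 to 11 without 1 library. The wider list, at 10, gave 3, 1, 3, 0 and 2 under the same settings, 6 without the 2 libraries with lens crystallin counts, 6 against control replicates 2 and 4 only, and 5 to 10 without 1 library. No replication gene was called higher under any of the 21 alternatives. The members' median of -0.12 ran from -0.14 to -0.09 without 1 library. It moved by more than the within-group SD of 0.044 only against control replicates 1 and 3 (-0.069); against control replicates 2 and 4 it was -0.16. Ezh2 passed the threshold in 3 of the 21 alternatives. They included DESeq2 (log2 0.20, adjusted p = 0.0423) and the replicate block (0.21, edgeR adjusted p = 0.025). Without 1 library, Ezh2 ranged from 0.16 to 0.26, with edgeR adjusted p from 0.0129 to 0.206. Replicate numbers were not taken as pairs: same-numbered libraries correlated at 0.223, -0.0604, -0.0113 and 0.187 in their deviations from the group means, and not every library correlated best with its own number. With the replicate number as a block, 8 replication genes and 7 of the wider list were called lower. No called gene changed direction under these alternatives. Causes of these changes were not tested. Low counts limit Orc1 most.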
